A study of Danio rerio with 17 samples.

Results

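Solute carriers are membrane proteins that move small molecules across the cell surface and across the membranes of mitochondria, lysosomes, Golgi and vesicles. Their symbols give the family first and the member after it, so that slc25a5 is member 5 of family 25, and families broadly share substrates. Cranial neural crest cells migrate in the embryo and give rise to facial cartilage and bone, pigment cells and glia. In such cells solute carriers feed growth, matrix sulfation and metal-dependent enzymes, and some members serve pigment granules or neurotransmitter uptake. The genes described here are all those of the deposited RNA tables whose common name begins with slc and a number. They are 51 of the 4169 genes in either table, 24 in the prdm3 table and 32 in the prdm16 table, with 5 in both. One more gene, dirc2, is listed in both tables and carries an slc symbol only in the table of gene IDs, so the naming rule leaves it out.

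RNA came from sox10:GFP positive cranial cells sorted from pooled, dissociated zebrafish embryos at 48 hours post fertilization, and every group carries that reporter. The tables hold 3 prdm3-/- libraries against wild type replicates 2 and 3. They hold 2 prdm16-/- libraries (replicates 1 and 2) against all 3 wild type libraries. The series has 3 RNA prdm16-/- libraries, and the prdm16 table has no values for replicate 3. What is said of prdm16 mutants therefore covers replicates 1 and 2 only. No source used here gives the alleles behind these genotypes. The library descriptions name wild type replicates 1 and 2 after prdm3 and replicate 3 after prdm16, so each mutant is set against wild types named after both. Prdm3 and Prdm16 are zinc finger proteins related to histone methyltransferases, and the title of the study ties them to Wnt/β-catenin activity in cartilage cell differentiation. Each library is a pool of embryos, and whether replicates came from separate clutches is not stated, so p-values measure the spread between these libraries. Levels are FPKM, fragments scaled to transcript length and library size, which are relative to the rest of a library. Read depth is unknown. In sorted bulk cells, fewer cells of a type and less RNA per cell cannot be told apart. Neither targeted gene is listed in its own comparison, so the genotype labels were not checked there. Of 10 crest and arch markers, prrx1a was listed higher in the prdm3 table, at 30.3 to 37.0 FPKM in mutants and 22.0 to 25.3 FPKM in wild type. In the prdm16 table foxd3 was lower, at 0 in both mutant libraries and 3.10 to 3.40 FPKM in wild type. Also lower there was barx1, at 2.02 and 0 FPKM in mutants and 14.4 to 15.4 FPKM in wild type. Of all rows, 94.2% were higher in the prdm3 table and 97.4% lower in the prdm16 table. The marker sox10 and all 5 cartilage markers were listed in neither and are not analysed here.

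The tables hold only genes past the authors' threshold. A gene had to reach an unadjusted p below 0.05 in the prdm3 table and a false discovery rate q below 0.05 in the prdm16 table, and to average about 1 FPKM in its higher group. A solute carrier gene that is absent either missed that threshold or was not tested. The table of gene IDs holds 436 slc symbols among 29201 genes. The 24 solute carrier genes of the prdm3 table are 5.5% of these symbols, beside 5.09% of all genes in the ID table. For the prdm16 table the 32 genes are 7.34%, beside 9.97% of all genes. In both tables the groups of every listed gene are free of overlap (100% of rows, solute carrier or not), which the threshold itself brings about.

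In prdm3 mutant cells, 23 of the 24 listed solute carrier genes were higher and 1 was lower, relative to wild type. This split is close to that of the whole table, where 94.2% of rows were higher. Among the 11242 genes tested, 12.7% were listed higher and 0.783% lower. The median ratio of the 23 higher genes was 1.62, against 1.75 over the 1430 higher rows of the table above 0 in both groups. As log2(FPKM + 1), a scale on which changes of low genes look smaller than they are, the median differences were 0.54 and 0.64. No solute carrier gene passed q below 0.05 in the authors' deposited table, where their q ran between 0.239 and 0.367, and of all genes tested 0.0267% passed. All 24 had an unadjusted p below 0.05. With limma run on the listed rows, 14 of the 24 passed an adjusted p below 0.05, as did 1221 of all 1520 rows, with a variance prior learned from rows already chosen for their difference. The direction of the higher genes is thus that of the whole table, and their median difference is somewhat smaller. The solute carrier genes were also lower in level, with a median wild type mean of 1.44 FPKM, against 3.61 FPKM over all rows. The part of this level in the smaller difference was not tested.

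**Figure D1:**
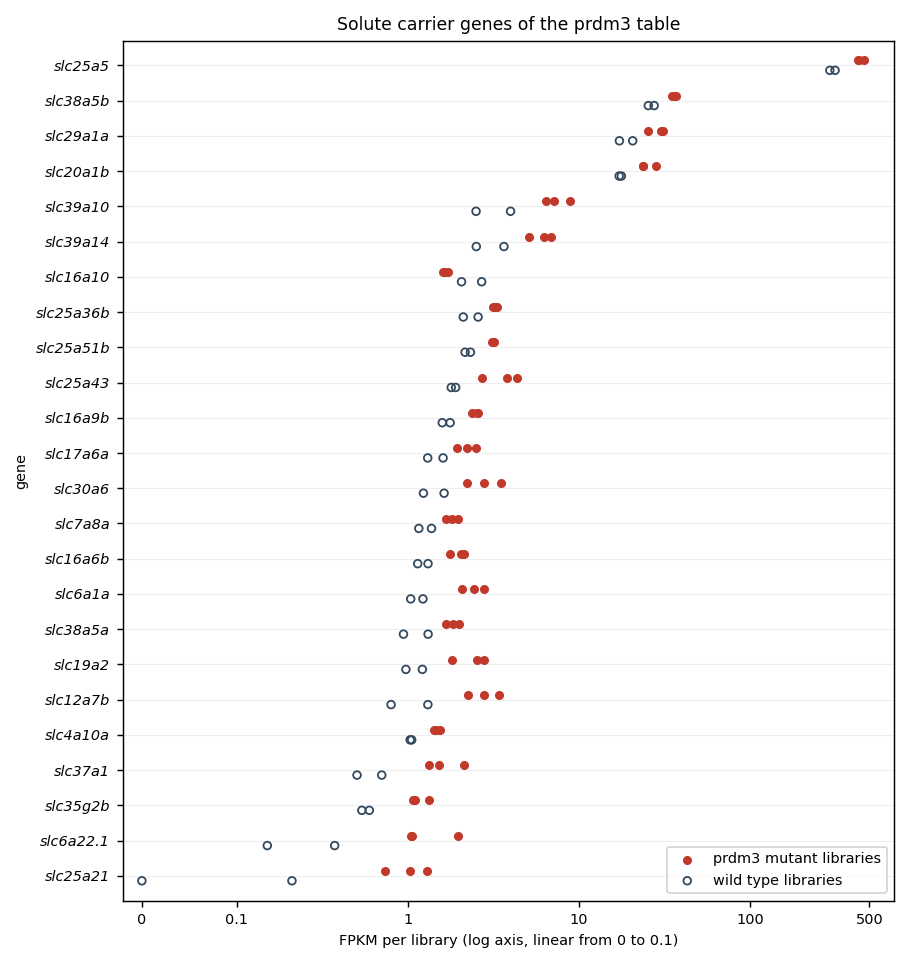
FPKM of the 24 solute carrier genes of the prdm3 table in each library, with filled points for the 3 prdm3 mutant libraries and open points for the 2 wild type libraries; the axis is logarithmic and linear from 0 to 0.1. All filled points lie right of the open ones except for slc16a10, and slc25a5 lies far above the other genes.

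Of all rows listed for prdm3, 94.2% were higher, and 5.09% of all genes in the ID table were listed. The mitochondrial carriers of family 25, which pass metabolites through the inner mitochondrial membrane, gave 5 higher genes of 59 and none lower. The most abundant was slc25a5, an ADP/ATP exchanger, with 428, 433 and 467 FPKM in prdm3 mutant libraries 1 to 3, against 293 and 315 FPKM in wild type libraries 2 and 3. Its log2 difference was 0.54 ± 0.06 (SE), and its q was 0.264 in the authors' deposited table. It ranked 12 of the 1520 rows by wild type level. Near-identical copies of this exchanger exist in vertebrates, and how reads were split between them is not given in the sources used here. The lowest unadjusted p among the solute carrier genes of the prdm3 comparison, 0.00123 in the authors' deposited table, belonged to slc25a51b, which in mammals imports NAD+ into mitochondria. Its values were 3.18, 3.09 and 3.16 FPKM in mutant libraries, against 2.32 and 2.16 FPKM in wild type libraries. The mutant libraries lay within 0.1 FPKM of each other. The pyrimidine nucleotide carrier gene slc25a36b gave 3.22, 3.32 and 3.15 FPKM, against 2.57 and 2.11 FPKM in wild type. For slc25a43 the mutant libraries were less even, at 2.70, 3.78 and 4.35 FPKM, against 1.90 and 1.79 FPKM. The oxodicarboxylate carrier gene slc25a21 was near the floor of the table, with 1.29, 1.03 and 0.739 FPKM in mutant libraries, against 0.210 and 0 FPKM in wild type libraries. It is 1 of 4 members with a wild type mean below 1 FPKM, which entered the table only through the mutant level and so had to be higher.

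Carriers of amino acids and related solutes also gave 5 higher genes, of 84 in the ID table, and none lower. Of all listed rows, 94.2% were higher. The glutamine transporter gene slc38a5b had 34.9, 36.7 and 37.0 FPKM in mutant libraries, against 25.5 and 27.5 FPKM in wild type libraries. Its paralogue slc38a5a was far lower in level, with 1.83, 1.66 and 2.00 FPKM in mutants, against 1.31 and 0.942 FPKM in wild type. The ratio of mutant to wild type means was 1.37 for slc38a5b, the smallest among the higher members, and 1.62 for slc38a5a. They are the sole pair listed together among 23 members whose symbol ends in a or b and has a partner in RefSeq. Reads of such pairs may have been split between them. The GABA transporter gene slc6a1a had 2.77, 2.43 and 2.07 FPKM in mutants, against 1.04 and 1.22 FPKM in wild type. The other family 6 member, slc6a22.1, gave 1.04, 1.97 and 1.06 FPKM, against 0.151 and 0.373 FPKM. The neutral amino acid exchanger gene slc7a8a differed little in size, with 1.82, 1.96 and 1.68 FPKM, against 1.37 and 1.16 FPKM.

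Carriers of metals and heme gave 3 higher genes, of 33 in the ID table, and none lower, where 94.2% of all listed rows were higher. The zinc importer gene slc39a10 had 6.40, 8.93 and 7.11 FPKM in prdm3 mutant libraries, against 3.98 and 2.50 FPKM in wild type libraries. Its log2 difference of 1.01 ± 0.25 (SE) was the largest of all 24 members with 1 FPKM added, and the authors' deposited table gives q = 0.323. With 0.1 FPKM added, slc25a21 (2.64), slc6a22.1 (2.02), slc12a7b (1.35) and slc37a1 (1.31) exceeded it (1.20). The zinc, manganese and iron importer gene slc39a14 gave 5.13, 6.27 and 6.86 FPKM in mutants, against 3.65 and 2.51 FPKM in wild type. Both importers were thus about 2-fold higher (ratios 2.31 and 1.98), and for both the wild type libraries differed from each other by more than 1 FPKM. The gene slc30a6, which belongs to the family that moves zinc out of the cytosol, gave 2.78, 3.52 and 2.23 FPKM, against 1.23 and 1.63 FPKM. So 3 genes of zinc families were listed, and they include both importers and an exporter.

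Of the 75 carriers of inorganic ions in the ID table, 3 were listed, all higher, as were 94.2% of all listed rows. The sodium-phosphate cotransporter gene slc20a1b had 23.8, 23.6 and 28.1 FPKM in mutants, against 17.2 and 17.7 FPKM in wild type. The potassium-chloride cotransporter gene slc12a7b had 3.41, 2.23 and 2.77 FPKM, against 1.31 and 0.797 FPKM. The sodium-bicarbonate transporter gene slc4a10a had 1.55, 1.47 and 1.43 FPKM, against 1.05 and 1.03 FPKM. Its low p of 0.00207 in the authors' deposited table went with wild type values that differed by about 0.02 FPKM, and limma, which moderates such small spreads, gave p = 0.0504.

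The monocarboxylate family 16 held members of both directions. Higher were slc16a9b, with 2.53, 2.37 and 2.58 FPKM in mutants, against 1.77 and 1.59 FPKM in wild type, and slc16a6b, with a mean of 1.98 ± 0.19 FPKM in mutants and 1.23 ± 0.12 FPKM in wild type (SD, n = 3 and 2). The lone lower member of the table was slc16a10, which in mammals carries aromatic amino acids and thyroid hormones. It had 1.60, 1.73 and 1.66 FPKM in mutant libraries, against 2.70 and 2.06 FPKM in wild type libraries. Its log2 difference was -0.34 ± 0.11 (SE), and its p of 0.0490 in the authors' deposited table is just inside the threshold. It missed the threshold when wild type replicate 2 was left out, with a difference of -0.20, and when mutant replicate 1 (-0.32) or 3 (-0.34) was. The unadjusted limma p was 0.155, 0.0582 and 0.0570 in that order.

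The remaining 5 members were all higher, as were 94.2% of all listed rows, each from another family. The nucleoside transporter gene slc29a1a had 30.2, 31.0 and 25.4 FPKM in mutants, against 17.3 and 20.6 FPKM in wild type. The thiamine transporter gene slc19a2 had 2.55, 2.80 and 1.81 FPKM, against 1.22 and 0.974 FPKM. The vesicular glutamate transporter gene slc17a6a had 2.21, 2.50 and 1.93 FPKM, against 1.61 and 1.31 FPKM. As in every listed row, the groups of these genes did not overlap. Mutant means of the sugar phosphate carrier gene slc37a1 and of slc35g2b were 1.65 ± 0.42 and 1.17 ± 0.14 FPKM, against wild type means of 0.604 ± 0.141 and 0.567 ± 0.040 FPKM (SD, n = 3 mutant and 2 wild type libraries). Both stand low in the table, and with slc25a21 and slc6a22.1 they complete the 4 members whose wild type mean was below 1 FPKM.

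Some markers of other cells that such a sort could hold were listed in the prdm3 table too. None of them passed q below 0.05, with q between 0.278 and 0.356 in the authors' deposited table. Of all genes tested, 12.7% were listed higher and 0.783% lower. Of 10 neuronal markers, inab was listed higher, at 8.05 to 10.6 FPKM in prdm3 mutants and 2.91 to 4.59 FPKM in wild type. The marker sncb was listed lower, at 0 to 0.644 FPKM in mutants and 1.78 to 2.36 FPKM in wild type. Among those 10 markers are slc6a1b and slc17a6b, partners of the members slc6a1a and slc17a6a, and both were listed in neither table. Of 7 glial markers sox2 was listed, at 16.5 to 21.4 FPKM in mutants and 9.0 to 11.2 FPKM in wild type. Of 11 pigment markers dct and tyrp1b were listed higher, with a sum of 24.7 to 32.9 FPKM in mutants and 6.53 to 14.8 FPKM in wild type. The pigment granule carriers slc45a2 and slc24a5, which are among those 11 markers, were listed in neither table. Of 5 epidermal markers krt91 was higher, at 4.62 to 6.40 FPKM in mutants and 1.55 to 2.41 FPKM in wild type, and of 5 otic markers oc90 was higher, at 0.877 to 1.42 FPKM and 0.268 to 0.425 FPKM. Lower were 2 of 4 lens and retina markers, crygm2d9 and cryba1b, with a sum of 0 to 0.705 FPKM in mutants and 3.24 to 4.17 FPKM in wild type. Also lower was 1 of 5 muscle markers, tnnt3a, at 0 to 0.591 FPKM in mutants and 1.27 to 1.47 FPKM in wild type. No blood, endothelial, or gut, liver and kidney marker was listed. The part of these cells in the solute carrier values was not tested. Among the wild type libraries, replicate 2 gave the higher value for 17 of the 24 members (70.8%), against 47.2% of all rows of the table.

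**Figure D2:**
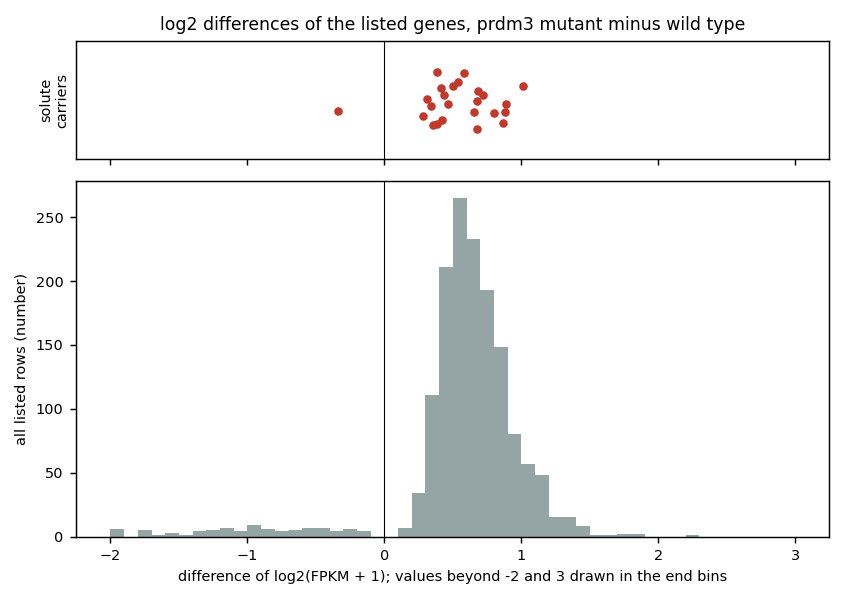
Difference of log2(FPKM + 1), prdm3 mutant minus wild type, for the 24 solute carrier genes (points, spread vertically for sight only) above the number of all 1520 listed rows in bins of that difference. The solute carrier genes lie between -0.34 and 1.01, within the main body of the listed rows, and the gap around 0 is that of the authors' threshold.

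In prdm16 mutant cells, 31 of the 32 listed solute carrier genes fell, relative to wild type, and 1, slc7a11, rose. Of the 31 lower genes, 29 were listed at 0 in both mutant libraries. Of all rows listed for prdm16, 97.4% were lower. Among the 10623 genes tested, 27.4% were listed lower and 0.734% higher. The share of lower rows at 0 in both mutant libraries was 93.5% for solute carriers and 87.2% for all 2912 lower rows. A value of 0 in these libraries can be a failed estimate or absent RNA, and which of them holds was not tested. The proteasome subunit gene psma4, a single gene picked as an example, was also at 0 in both mutant libraries. Its wild type libraries had 34.7, 20.3 and 27.2 FPKM. No fold change is given for the genes at 0. The labels mark both prdm16 mutant libraries, wild type replicate 1 and prdm3 mutant replicate 2 as cleaned, without saying how. Prdm3 mutant replicate 2 was at 0 in 23 of the 1520 rows of its table, beside 19 and 15 in mutant replicates 1 and 3, and in none of the solute carrier rows. In the prdm16 table, wild type replicate 1 was at 0 in 1 of 2990 rows, beside 2626 and 2775 in mutant replicates 1 and 2. Rows were listed in each table only where the mutant libraries stood apart from wild type together. These counts therefore cannot show what the cleaning does. The part of this step in the prdm16 values was not tested.

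The solute carrier genes at 0 were of low level in wild type cells. Their wild type means ran between 1.11 and 7.31 FPKM with a median of 2.12 FPKM, against a median of 2.99 FPKM over all 2540 rows at 0. In the whole table, rows at 0 were more common at low wild type levels. They were 93.9% of lower rows with a wild type mean under 2 FPKM, 89.1% between 2 and 5 FPKM, 82.7% between 5 and 10 FPKM and 70.4% above 10 FPKM. The lower solute carrier genes at 0 were 12 of 12, 15 of 16 and 2 of 3 in the first 3 of these ranges, and no lower member lay above 10 FPKM. The abundant members of the prdm3 table, such as slc25a5, slc38a5b, slc29a1a and slc20a1b, are not among the genes listed here.

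**Figure D3:**
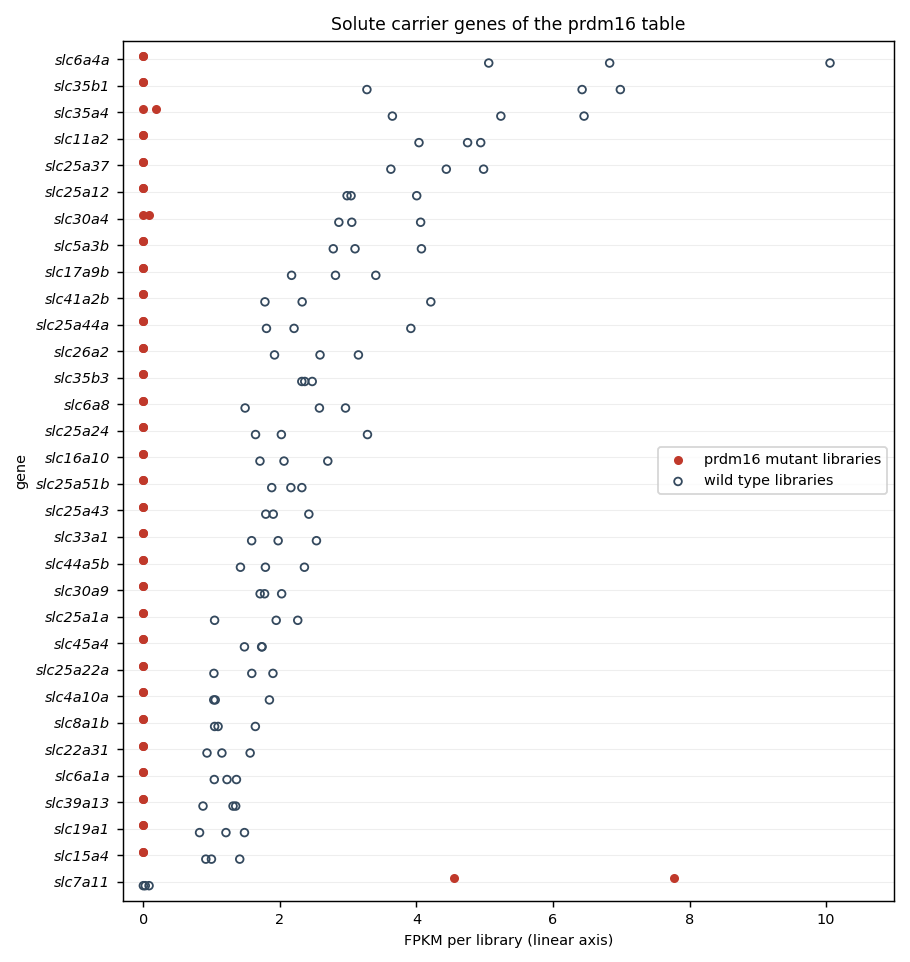
FPKM of the 32 solute carrier genes of the prdm16 table in each library on a linear axis, with filled points for the 2 prdm16 mutant libraries and open points for the 3 wild type libraries. Filled points stand at or near 0 for 31 genes, and slc7a11 at the bottom has the reverse order, with 7.78 and 4.55 FPKM in mutant libraries.

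The higher gene, slc7a11, encodes the light chain of the exchanger that takes up cystine in return for glutamate and so feeds glutathione synthesis. It had 7.78 and 4.55 FPKM in prdm16 mutant libraries 1 and 2, against 0, 0.0833 and 0.0279 FPKM in wild type libraries 1 to 3. As in every listed row the groups did not overlap, and the gene was at or close to 0 in all wild type libraries. The log2 difference came to 2.75 ± 0.25 (SE), its q was 0.0150 in the authors' deposited table. With 1 of the mutant libraries left out the difference was 2.42 or 3.08. By this difference, with 1 FPKM added, it ranked 16 among the 78 higher rows, whose median difference was 1.97. With 0.1 FPKM added its difference was 5.51, so the size rests largely on the amount added. Its wild type mean was the second lowest of those rows, and it was the only one of them with a wild type library at 0. A gene this low in wild type could enter the table only as a higher one. Family 3 genes, which encode the heavy chain partner of such exchangers, were listed in neither table. Since many genes are at 0 in the mutant libraries and FPKM is relative, whether its level per cell was higher was not tested.

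Mitochondrial carriers were the class with most lower genes, 8 of the 59 family 25 genes in the ID table. Family 25 is also the largest family there. Of all genes in the ID table, 9.97% were listed for prdm16. All 8 were at 0 in both mutant libraries, as were 87.2% of all lower rows. The mitochondrial iron importer gene slc25a37 stood highest, with 4.44, 3.62 and 4.98 FPKM in wild type libraries 1 to 3. Next was the aspartate/glutamate carrier gene slc25a12, with 4.00, 3.04 and 2.98 FPKM in wild type. The other 6 averaged between 1.51 and 2.64 FPKM in wild type and comprise slc25a44a (branched-chain amino acids), slc25a24 (ATP-Mg and phosphate), slc25a51b, slc25a43, slc25a1a (citrate) and slc25a22a (glutamate). Family 25 thus had the direction of each table, with 5 genes higher in prdm3 mutants and 8 at 0 in prdm16 mutants. Of all listed rows, 94.2% were higher in prdm3 mutants and 97.4% lower in prdm16 mutants.

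Among carriers of metals, 5 were lower and 4 of these were at 0 in both prdm16 mutant libraries. The iron and manganese importer gene slc11a2 had 4.75, 4.04 and 4.94 FPKM in wild type libraries and 0 in both mutant libraries (q = 0.00551, from the authors' deposited table). The zinc carrier gene slc30a4 was above 0 in 1 mutant library, with 0.0872 and 0 FPKM in mutants, against 3.05, 4.06 and 2.86 FPKM in wild type. The log2 difference of slc30a4 came to -2.04 ± 0.16 (SE), and the authors' deposited table gives it q = 0.0125. With 0.1 FPKM added the difference was -4.63, so its size rests largely on the amount added. Of the 5 lower metal carrier genes, slc30a4 was the sole one with a mutant library above 0. At 0 were also the mitochondrial zinc carrier gene slc30a9 (1.71, 1.78 and 2.03 FPKM in wild type), the magnesium carrier gene slc41a2b (2.33, 4.21 and 1.78 FPKM) and slc39a13 (1.31, 1.35 and 0.873 FPKM), a zinc carrier tied to connective tissue in mammals. Both slc11a2 and slc25a37 are known in zebrafish for their part in red cell iron supply. Of 5 blood markers, hbbe1.1 was listed, at 0 in both mutant libraries and at 19.3 to 24.0 FPKM in wild type, and its part in these values was not tested.

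Family 35, classed here as nucleotide sugar carriers, gave 3 lower genes of 30 in the ID table, where 9.97% of all genes were listed. The class was set by family number and not for each member, so the substrate of a single gene can differ. The gene slc35b1 had 6.99, 6.43 and 3.27 FPKM in wild type libraries and 0 in both mutant libraries. The gene slc35a4 had 0 and 0.192 FPKM in mutants, against 5.24, 6.45 and 3.65 FPKM in wild type, with a log2 difference of -2.46 ± 0.27 (SE). With 0.1 FPKM added that difference was -4.89, so its size also rests largely on the amount added. Both slc35b1 and slc35a4 were among the most abundant lower members in wild type. The lowest q of all members, 0.00178 in the authors' deposited table, belonged to slc35b3, whose product brings the sulfate donor into the Golgi. It was at 0 in both mutant libraries and at 2.36, 2.47 and 2.32 FPKM in wild type, the evenest wild type values of the 32 genes. The sulfate transporter gene slc26a2, whose loss in humans disturbs cartilage, was at 0 in mutants and at 1.92, 3.15 and 2.59 FPKM in wild type.

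The amino acid and transmitter carriers had 3 genes at 0 beside the higher slc7a11, where 87.2% of all lower rows were at 0. The serotonin transporter gene slc6a4a was the most abundant lower member, at 10.1, 5.06 and 6.83 FPKM in wild type libraries. The creatine transporter gene slc6a8 was at 2.96, 2.58 and 1.49 FPKM in wild type and slc6a1a at 1.36, 1.04 and 1.22 FPKM. Of 10 neuronal markers none was listed in this table, and of 7 glial markers fabp7a was at 0 in both mutant libraries and at 7.28 to 17.3 FPKM in wild type. The part of these cells in the values was not tested.

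The other 11 lower members were all at 0 in both mutant libraries, as were 87.2% of all lower rows. They belong to 11 further families. In wild type they averaged 3.32 ± 0.67 FPKM for the myo-inositol transporter gene slc5a3b and 2.80 ± 0.62 FPKM for the vesicular nucleotide transporter gene slc17a9b (SD, n = 3). Between 2.16 and 1.65 FPKM lay slc16a10, the acetyl-CoA transporter gene slc33a1, the choline transporter family gene slc44a5b and slc45a4. Lowest were slc4a10a, the sodium-calcium exchanger gene slc8a1b, slc22a31, the folate transporter gene slc19a1 and the lysosomal histidine and peptide transporter gene slc15a4, between 1.31 and 1.11 FPKM. These lowest ones lie just above the floor of about 1 FPKM at which the table begins.

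The genes slc16a10, slc25a43, slc25a51b, slc4a10a and slc6a1a are in both tables. They are 20.8% of the prdm3 members and 15.6% of the prdm16 members, beside 22.3% and 11.3% for all 339 genes in both tables. The comparisons share wild type libraries 2 and 3. All of them were at 0 in both prdm16 mutant libraries, and all but slc16a10 were higher in prdm3 mutants. Over all 339 genes, 293 were higher in prdm3 and lower in prdm16 mutants, 30 were lower in both and 16 higher in both.

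These genes also allow the prdm3 libraries to be set beside wild type replicate 1, which the prdm3 table leaves out, because the wild type values of the tables were equal within 0.01 FPKM for 338 of the 339 genes. This look was added after the data were seen. For slc25a51b wild type replicate 1 had 1.88 FPKM, below all prdm3 mutant libraries, and the log2 difference with all 3 wild type libraries was 0.41 ± 0.06 (SE), against 0.35 ± 0.03 with 2. For slc6a1a it had 1.36 FPKM and for slc25a43 2.42 FPKM, again below every prdm3 mutant library, with differences of 0.63 ± 0.11 and 0.59 ± 0.18. For slc4a10a it had 1.85 FPKM, above all 3 prdm3 mutant libraries, and the difference was 0.12 ± 0.16 with 3 wild type libraries, against 0.28 ± 0.03 with 2. For slc16a10 it had 1.71 FPKM, inside the range of the prdm3 mutant libraries, and the difference was -0.23 ± 0.13. So 3 of these 5 genes stayed apart from all wild type libraries and 2 did not, and over all 339 genes 73.5% stayed apart.

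**Figure D4:**
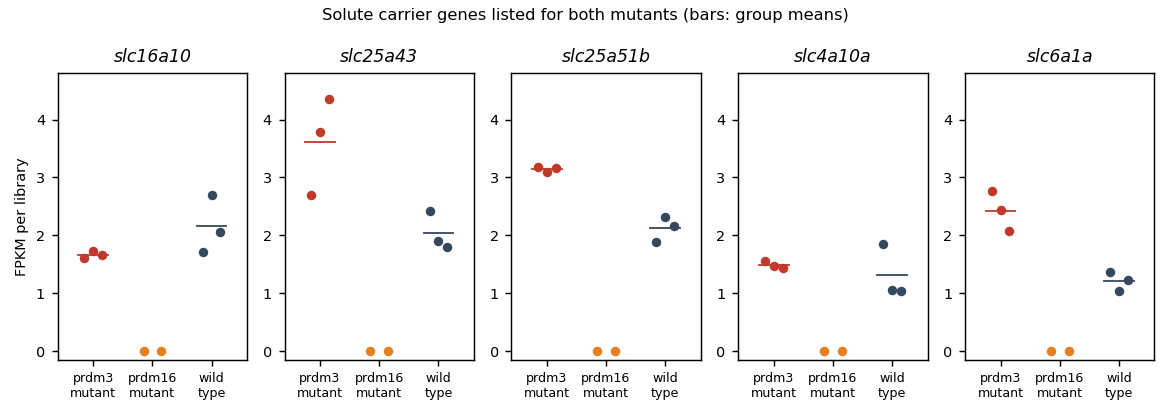
FPKM per library of the 5 solute carrier genes listed for both mutants, for 3 prdm3 mutant, 2 prdm16 mutant and 3 wild type libraries, with bars for the means of groups above 0. The prdm16 mutant libraries are at 0 throughout, and one wild type library overlaps the prdm3 mutant range or exceeds it for slc16a10 and slc4a10a.

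By family, 25 of the 51 families with a gene in the ID table had a listed member, 15 in the prdm3 table, 20 in the prdm16 table and 10 in both. No member was listed from the other 26 families, which hold 118 genes. Among them are the facilitated hexose transporters of family 2 (19 genes), the glutamate and neutral amino acid transporters of family 1 (12 genes) and the sodium-proton exchangers of family 9 (11 genes). By the naming rule dirc2, though listed, does not count for its family here. Nothing follows for the unlisted genes of these families about their level or difference.

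**Figure D5:**
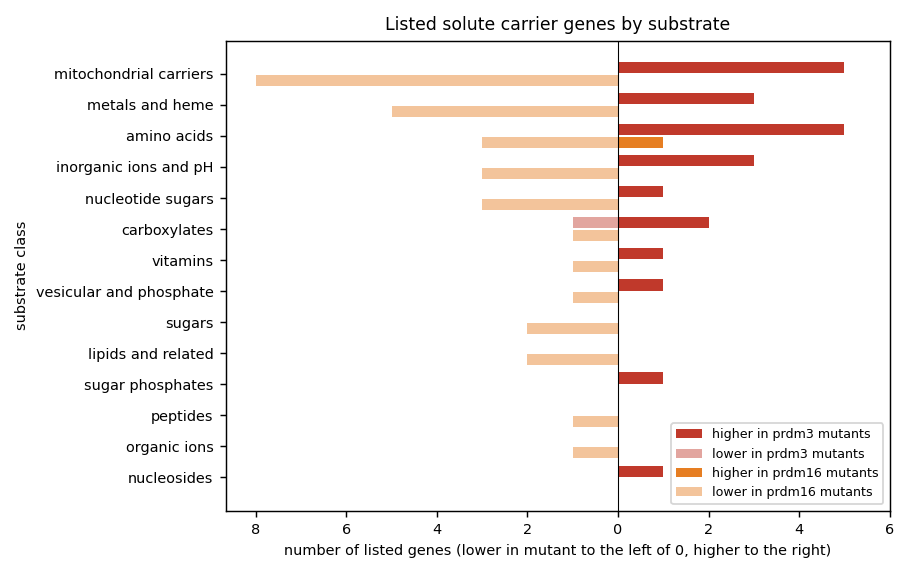
Number of listed solute carrier genes in each substrate class, higher in the mutant to the right of 0 and lower to the left, with prdm3 mutants above and prdm16 mutants below within each class. Mitochondrial carriers count 5 higher in prdm3 mutants and 8 lower in prdm16 mutants, and the sole bars of the opposite direction are slc16a10 in prdm3 mutants and slc7a11 in prdm16 mutants.

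The listed genes of other transport families had the directions of their tables, where 94.2% of prdm3 rows were higher and 97.4% of prdm16 rows lower. Of 394 RefSeq symbols for pumps, channels, aquaporins, ABC transporters, carriers with other names and carrier partners, 9 were listed higher and none lower in prdm3 mutants (2.28% of them, beside 5.09% of all genes in the ID table). In prdm16 mutants 1 was listed higher and 28 lower, with 24 at 0 in both libraries (7.36% listed, beside 9.97%). The first share of each pair is of protein-coding RefSeq symbols and the second of all genes in the ID table, so their bases differ. The gene listed higher in prdm16 mutants was atp2b2, a calcium pump of the cell membrane (q = 0.0304 in the authors' deposited table). It had 59.1 and 94.9 FPKM in prdm16 mutants, against 19.3, 17.3 and 13.7 FPKM in wild type. The related pump gene atp2b1a was lower, with 1.89 and 0.944 FPKM, against 9.81, 7.66 and 5.90 FPKM. The mitochondrial pyruvate carrier gene mpc1 was at 0 in both prdm16 mutant libraries and at 6.74, 5.20 and 2.99 FPKM in wild type. The V-ATPase, the proton pump whose gradient drives many lysosomal and vesicular carriers, had 3 genes higher in prdm3 mutants and 6 lower in prdm16 mutants. These are 11.1% and 22.2% of its 27 symbols, above the 5.09% and 9.97% of all genes in the ID table. The pooled shares thus hide unlike sets, which in the prdm16 table ran from 3.43% of ion channels to 30.8% of 13 Ca2+ ATPase symbols. These shares were not tested. The V-ATPase genes atp6v0a1b and atp6v1e1a were in both sets.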

How the data were processed

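RNA libraries of sorted sox10:GFP cells were compared from 2 deposited tables, each mutant against wild type. The authors' library values are taken as FPKM, which the tables do not name, since the submitters' processing notes list Cufflinks beside TopHat2 2.1.1 and build danRer11. The deposited tables add p-values and q-values, group means and a signed fold score by the authors, whose test is not named. An equal-variance test on log2(FPKM + 1) gave p within 1% of theirs in all 1520 and 2990 rows. Genes tested were recovered from the relation of p and q. Mutant minus wild type differences and standard errors were computed on log2(FPKM + 1). Since unlisted genes are not held, counts rest on the authors' p and q, and limma 3.58.1 in R 4.3.3, run on listed rows, adjusted over the genes tested and checked on simulated data, is an alternative. Simulated rows were not chosen for a difference and held no group at 0, so that check does not cover the use on listed rows. Columns were matched by label, and none of the per-sample columns was left out. The members and lists were chosen with earlier results of these data known. Named genes are those in both tables, directions with 10 or fewer members, the 12 with the largest difference, smallest p or highest wild type level at 0, and 2 per substrate class of 3 or more. Others were named to account for every member. ATAC peaks were not used, as no annotation of their build was at hand.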

Additional observations from a re-analysis of the deposited data

Results flagged for a closer look

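The genes slc25a43, slc25a51b, slc4a10a and slc6a1a were picked out by a rule on their mutant libraries. Every prdm3 mutant library lay above, and every prdm16 mutant library below, the wild type mean of its table. Since the groups of every listed row are free of overlap, any gene listed higher for prdm3 and lower for prdm16 meets this rule. Among the 339 genes listed for both mutants, 293 did so, beside 4 of the 5 solute carrier genes. The rule therefore does not set these genes apart from other genes listed for both mutants. On the log2(FPKM + 1) scale the differences were 0.68 in prdm3 and -1.60 in prdm16 mutants for slc25a43, and 0.35 and -1.64 for slc25a51b. They were 0.28 and -1.19 for slc4a10a, and 0.68 and -1.14 for slc6a1a. For slc4a10a, wild type replicate 1, which the prdm3 table leaves out, lay above every prdm3 mutant library. Its prdm3 difference with all 3 wild type libraries was 0.12 ± 0.16 (SE). For slc25a43, slc25a51b and slc6a1a, that replicate lay below every prdm3 mutant library. All genes picked out here were at 0 in both prdm16 mutant libraries, and whether such listings are failed estimates was not tested. Their prdm16 differences therefore give only the wild type level on the log2(FPKM + 1) scale, with its sign reversed. They are not fold changes and do not measure the size of a change. The comparisons also share wild type libraries. The difference between the mutants was not tested.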

How the results depend on the processing

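Of the 23 higher and 1 lower solute carrier genes of the prdm3 table, a pseudocount of 0.1 kept 23 and 1. With limma on the listed rows, 14 of the 24 passed an adjusted p below 0.05. At an unadjusted limma p below 0.05 the counts were 22 and 1. Leaving out each library in turn gave 18 to 22 higher and 0 to 1 lower genes. The lower gene, slc16a10, was lost (0 lower) without prdm3 mutant replicate 1, without prdm3 mutant replicate 3, without wild type replicate 2 and under the replicate block, and the cause was not tested. Only rows with a higher group mean of 2 FPKM or more left 15 higher genes in the prdm3 table and 19 lower genes in the prdm16 table, by fewer rows being kept. The 31 lower prdm16 genes became 2 without rows at 0 in every library of a group, and 0 without rows at 0 in any library, a choice added after the data were seen. The second of these choices also took out slc7a11, the higher gene (0 left). Leaving out each library gave 31 lower and 1 higher gene every time, which is no sign of stability, since 29 are at 0 in both mutant libraries. Where 1 library was left in a group, it was assumed to vary like the other group. All refits without a library used limma on the listed rows, with a variance prior learned from rows already chosen for their difference. Without prdm3 mutant replicate 2, the unadjusted limma p was 9.41e-06 for slc12a7b and 0.0857 for slc4a10a. The authors' p were 0.0254 and 0.00207. Genes that stay past the threshold in these refits are therefore no sign of stability in either table. With replicate numbers as a replicate block, counts were 21 and 0 in the prdm3 table and 1 higher and 31 lower in the prdm16 table. Only 2 numbers are shared in each comparison. Deviations of same-numbered libraries had correlations of -0.0487 and -0.0267 in the prdm3 table, and 0.031 and -0.0202 in the prdm16 table. These correlations cannot show whether libraries were paired, since rows were chosen for a difference large beside their spread. In the prdm16 table, 2540 of 2990 rows are also at 0 in both mutant libraries and have no deviation there. The replicate numbers used are those of the sample titles. The library descriptions carry other numbers, of which mutant and wild type share only 1 in each table, so no block could be made from them. Among 22 named genes of the prdm3 table, 17 stayed past the threshold without each library in turn. The 5 that did not were slc16a10, slc25a36b (log2 difference 0.33 without mutant replicate 2, 0.24 without wild type replicate 3), slc30a6 (0.53 without wild type replicate 2), slc7a8a (0.31 and 0.28 without mutant replicate 1 or 2, 0.25 without wild type replicate 3) and slc4a10a (0.26 to 0.30, every library). Read depth is unknown, which limits what can be said of genes near 1 FPKM. Alternatives for promoter peaks, listed at the outset, were not run.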
